A study of Mus musculus with 24 samples.

Results

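The 8 subunits of the cytosolic chaperonin CCT (also called TRiC) are described here in mouse natural killer (NK) cells: Tcp1, Cct2, Cct3, Cct4, Cct5, Cct6a, Cct7 and Cct8. They were taken by gene symbol as the 8 rows that carry these names among the 38215 genes of the count table, and all 8 passed the filter on low counts in every comparison. Poly(A) RNA was sequenced in bulk in 24 libraries, in 6 groups of 4. The first pair of groups was KO and WT NK cells from spleen without treatment (naive), the next pair KO and WT NK cells from spleen after IL-15 treatment, and the last pair KO and WT NK cells out of lungs that bore a tumour. KO is read as loss of FcRγ, the signalling adaptor encoded by Fcer1g, from the title of the series. The 4 libraries of a group are labelled biological replicates. Strain, age, how the allele was made, how IL-15 was given, which tumour was used and whether each library is a separate animal are not stated in the labels. The p-values therefore speak only for the spread between libraries, which may be technical.

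CCT is a double-ring, ATP-driven folding machine in which each ring holds 1 copy of every subunit, so a working particle needs all of them. It folds actin and tubulin, which few other chaperones can do, together with WD40-repeat proteins such as cell-cycle activators and G-protein beta subunits. Prefoldin hands unfolded actin and tubulin to it, and phosducin-like proteins regulate it. In NK cells actin and microtubules carry out granule polarisation and killing. The subunits descend from a common ancestor and differ in ATP use: in yeast, the orthologues of Cct2, Cct4 and Cct5 hydrolyse ATP readily, and those of Cct3, Cct6a and Cct8 bind it weakly.

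The genes lie on 8 different chromosomes, so they share no local neighbourhood. By the deposited gene coordinates (GRCm38, annotation not named), Tcp1 (alpha) spans chr17:12915701-12925067 on the plus strand. Cct2 (beta) spans chr10:117050998-117063814 on the minus strand and Cct3 (gamma) chr3:88297116-88321767 on the plus strand. Cct4 (delta) spans chr11:22990519-23003780 on the plus strand, Cct5 (epsilon) chr15:31590800-31601847 on the minus strand and Cct6a (zeta) chr5:129787439-129845820 on the plus strand. Cct7 (eta) spans chr6:85451505-85468477 on the plus strand and Cct8 (theta) chr16:87483326-87495873 on the minus strand. Promoter sequence was in the RefSeq table (GRCm38.p6) for 7 of the 8. Starts named below are RefSeq starts, which can differ from the ends of these spans, and exons are those of GENCODE M21. All 7 held a GC box (GGGCGG or CCGCCC, the motif of SP-type factors) in the 250 bases before the start, against 32.7% of all 32851 promoter windows of that length. A CCAAT box (CCAAT or ATTGG) was in 4 of 7, those of Tcp1, Cct3, Cct6a and Cct7, against 33.8% of windows. The ETS motif CCGGAAG or CTTCCGG was in 2 of 7, Cct2 and Cct8, against 6.91%. A pair of heat shock half-sites (GAANNTTC or TTCNNGAA) was in 1 of 7, Cct5, against 12.8%. The E-box CACGTG was in 0 of 7, against 6.02%. The motifs were searched on both strands and do not overlap one another in the runs printed here. A match is a description of letters, not a bound site. The 4 runs that touch no annotated exon are shown because they let the shared and the differing motifs be read side by side, with capitals on the motif matches: Cct2 at chr10:117063853-117064102 (minus strand, 4 GC boxes and 1 ETS motif), Cct3 at chr3:88297000-88297115 (plus strand, ending 19 bases before the start, 1 GC box and 2 CCAAT boxes), Cct7 at chr6:85451284-85451504 (plus strand, 2 GC boxes and 3 CCAAT boxes) and Cct8 at chr16:87495874-87495998 (minus strand, ending 4 bases before the start, 1 GC box and 1 ETS motif).
Cct2: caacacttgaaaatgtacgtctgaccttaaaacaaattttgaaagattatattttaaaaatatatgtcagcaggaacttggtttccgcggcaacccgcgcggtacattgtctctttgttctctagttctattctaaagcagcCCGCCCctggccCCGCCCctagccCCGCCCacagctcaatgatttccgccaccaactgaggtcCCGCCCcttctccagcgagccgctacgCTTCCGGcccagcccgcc
Cct3: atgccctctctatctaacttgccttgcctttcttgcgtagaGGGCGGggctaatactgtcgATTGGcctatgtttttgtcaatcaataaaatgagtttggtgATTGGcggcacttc
Cct7: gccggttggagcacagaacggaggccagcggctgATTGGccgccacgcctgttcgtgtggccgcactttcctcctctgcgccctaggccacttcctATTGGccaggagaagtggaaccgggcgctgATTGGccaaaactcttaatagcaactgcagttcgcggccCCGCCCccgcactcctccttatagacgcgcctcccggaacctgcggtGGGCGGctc
Cct8: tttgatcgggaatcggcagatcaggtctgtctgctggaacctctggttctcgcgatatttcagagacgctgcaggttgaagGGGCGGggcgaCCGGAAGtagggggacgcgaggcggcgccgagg

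Library totals ran from 9.68 M to 32.1 M counts, and the shallow libraries were KO naive replicate 1 (9.68 M) and WT lung replicate 1 (9.77 M). Fcer1g stood at 1.25 to 16.2 CPM (counts scaled to the library total) in the 12 KO libraries and 253 to 795 CPM in the 12 WT libraries, so the labels of genotype held. All 7 NK markers examined were detected in every group. Levels below are CPM on library totals scaled by edgeR's TMM method. Every gene-wise p is from edgeR's quasi-likelihood test with Benjamini-Hochberg adjustment over all genes tested, and a change passed at an adjusted p under 0.05.

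In naive spleen all 8 CCT subunits were lower in KO than in WT NK cells. Summed over the 8 genes, the KO libraries held 1739, 1484, 1721 and 1438 CPM (1595 ± 157, SD, n = 4) and the WT libraries 2178, 2515, 2359 and 2155 CPM (2302 ± 169, SD, n = 4). The KO mean was 69.3% of the WT mean, and single subunits lay between 63.9% (Cct5) and 75.4% (Cct2). In bulk RNA, fewer cells that carry a transcript and less of it per cell cannot be told apart.

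By role, the subunits whose yeast orthologues hydrolyse ATP readily came out as follows. Cct5 was measured at 259.5, 253, 308 and 243 CPM in KO and 405, 458, 416 and 386 CPM in WT naive cells. Cct4 stood at 208, 197, 222 and 189 CPM in KO and 298, 347, 320.5 and 302 CPM in WT. Cct2, whose KO libraries lay closest together, had 254, 245, 247 and 242 CPM in KO and 307, 335, 352 and 315 CPM in WT. For each of these genes the highest KO library lay below the lowest WT library. The log2 changes were -0.67 ± 0.13 for Cct5 (SE, adjusted p = 0.00187), -0.66 ± 0.11 for Cct4 (adjusted p = 0.000471) and -0.44 ± 0.10 for Cct2 (adjusted p = 0.00441).

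Among the subunits whose yeast orthologues bind ATP weakly, Cct3 had 200.5, 132, 182 and 136 CPM in KO and 251, 273, 245 and 228 CPM in WT naive cells. Cct8 had 224, 178, 217 and 173 CPM in KO and 275, 301, 302 and 251 CPM in WT. Cct6a, the scarcest subunit transcript, had 51.9, 57.1, 55.4 and 47.2 CPM in KO and 60.6, 89.3, 78.8 and 78.7 CPM in WT. Again no KO library reached a WT library, although for Cct3 and Cct8 the KO libraries fell into a higher pair (replicates 1 and 3) and a lower pair (replicates 2 and 4). The changes were -0.64 ± 0.14 for Cct3 (SE, adjusted p = 0.00354), -0.54 ± 0.13 for Cct8 (adjusted p = 0.00619) and -0.57 ± 0.12 for Cct6a (adjusted p = 0.00348).

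Of the remaining members, Tcp1, the founding subunit, showed the same pairing of KO libraries, with 267, 196, 253 and 194 CPM in KO and 277, 333, 317 and 288 CPM in WT. Cct7 had 274, 227, 236 and 214 CPM in KO and 304, 380.3, 328 and 306 CPM in WT. Tcp1 changed by -0.44 ± 0.13 (SE, adjusted p = 0.019) and Cct7 by -0.50 ± 0.11 (adjusted p = 0.00509). In all, 8 of 8 subunits fell, where 9.22% of the 13344 genes tested fell. Every KO library was below every WT library for 8 of 8 subunits and for 9.26% of genes. The median change of the subunits was -0.55, beside -0.001 over all genes.

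**Figure D1:**
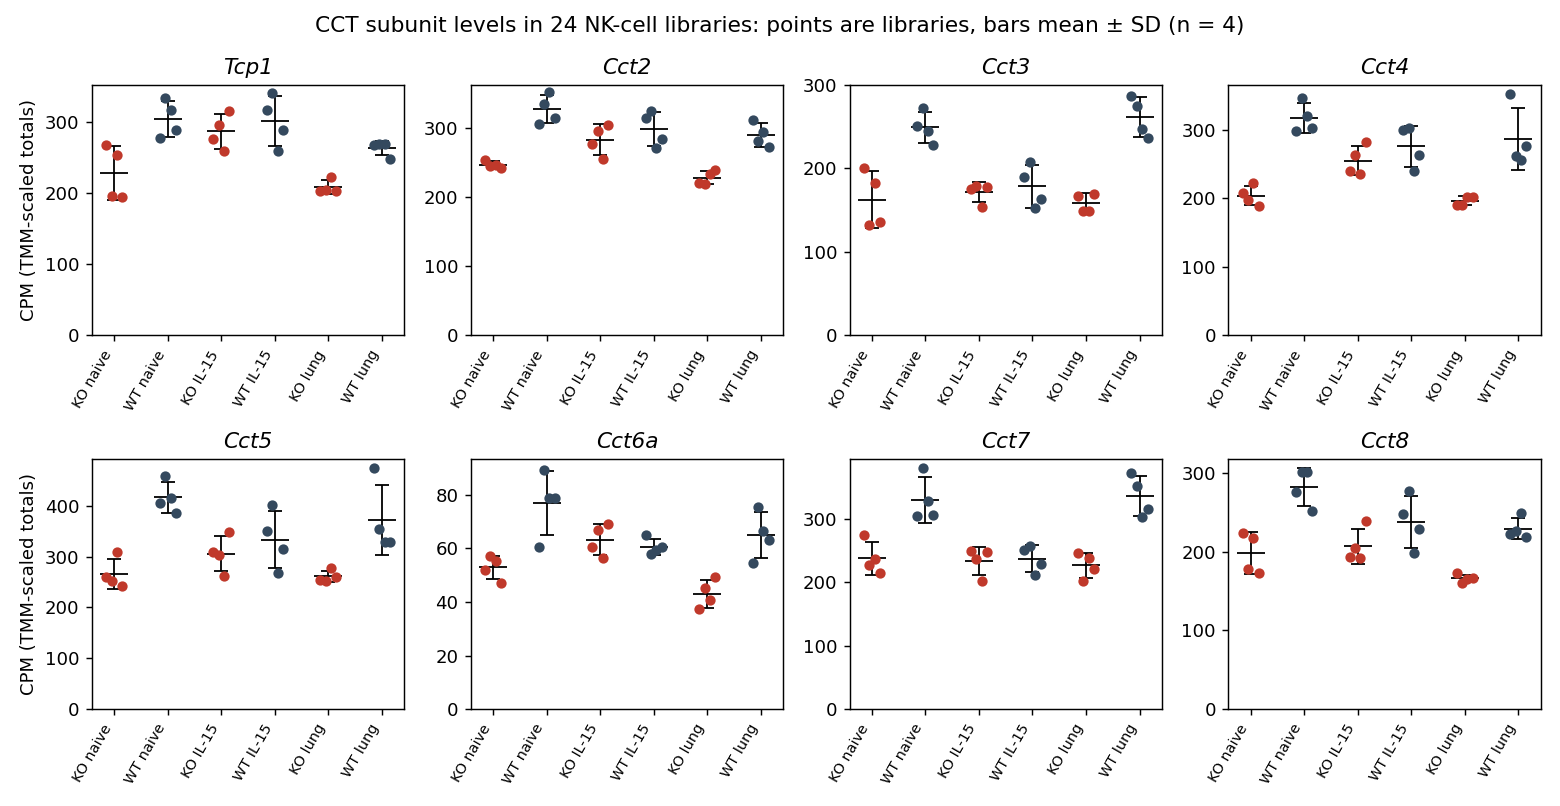
CPM (TMM-scaled totals, axis from 0) of each subunit in each of the 24 libraries, by group, with KO left of WT in every state; points are libraries and bars are group means ± SD (n = 4), KO in red and WT in dark blue. KO and WT points do not overlap in naive spleen or in lung for any subunit, and overlap after IL-15 for all 8.

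Other values moved with genotype in naive spleen. The summed NK markers stood at 13599.5 to 16266 CPM in KO and 17539 to 19528 CPM in WT. The summed T-cell markers stood at 44.7 to 71.6 CPM in KO and 21.4 to 30.5 CPM in WT, with Cd8b1 at 0 in both groups and the other 6 of 7 detected. The summed lung epithelium and endothelium markers stood at 99.6 to 125.6 CPM in KO and 54.8 to 76.7 CPM in WT. The surfactant genes Sftpc and Sftpb were at 0 in both groups. Scgb1a1 and Cdh5 were at 0 in KO but detected in WT, so the KO sum held Epcam and Pecam1 alone. Mitochondrially encoded genes took 1.18, 9.28, 4.19 and 8.74% of counts in KO replicates 1 to 4 and 4.89 to 6.31% in WT. The KO replicates with the higher share, 2 and 4, were the lowest pair of KO libraries for every subunit but Cct6a. With mitochondrial genes removed 8 of 8 subunits passed. Genes whose merged exons covered over 10 kb had a median log2 change of 0.34, and those under 1.5 kb one of -0.299. Those of 1.5 to 3 kb had -0.0966. The subunits' longest transcripts have 1853 to 2484 bases, and their merged exon lengths are not given here. With an offset for length and GC content in the fit, 4 of 8 subunits passed, where 1095 of 13344 genes fell. Cct3, Cct4, Cct5 and Cct7 were kept, while Tcp1 stood at -0.26 (adjusted p = 0.307), Cct2 at -0.27 (adjusted p = 0.0582), Cct6a at -0.35 (adjusted p = 0.064) and Cct8 at -0.24 (adjusted p = 0.295). Tcp1 also lost its call without KO naive replicate 2 or 4 or WT naive replicate 2 or 3 (adjusted p 0.0501 to 0.0595). The part of the marker lists in the result was not tested.

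After IL-15 treatment no subunit passed the test between KO and WT. The summed level was 1779, 1846, 1614 and 1982 CPM in KO (1805 ± 153, SD, n = 4) and 2032, 2168, 1659 and 1829.7 CPM in WT (1922 ± 224, SD, n = 4), and the groups overlapped for the sum and for all 8 subunits. KO means ranged from 86.9% (Cct8) to 104.2% (Cct6a) of WT means. The log2 changes ran from -0.22 for Cct8 to 0.05 for Cct6a, with a median of -0.09. Cct8 had the widest distance from 0, at -0.22 ± 0.12 (SE), with an approximate 95% interval (normal, from the SE) from -0.46 to 0.02. By edgeR's quasi-likelihood test 0 of 8 passed after adjustment and 0 at an unadjusted p under 0.05, and DESeq2 and limma-voom each called 0; 0.135% of the 13344 genes changed in either direction.

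Whether the KO effect itself differed between IL-15-treated and naive cells was tested as an interaction. The difference (IL-15 minus naive) was positive for all 8 subunits, between 0.32 for Cct8 and 0.62 ± 0.17 (SE) for Cct6a, with a median of 0.50. By edgeR's quasi-likelihood test 0 of 8 passed after adjustment, where 1.54% of genes did; the lowest adjusted p were 0.0732 for Cct6a and 0.0755 for Cct4. At an unadjusted p under 0.05 there were 6 of 8. DESeq2 called 2 (Cct4 and Cct6a), where of 13344 genes it called 211 higher and 471 lower. Limma-voom with library weights called 7, all but Cct8, where it called 502 genes higher and 818 lower. Without WT IL-15 replicate 2, edgeR called 4 (Cct3, Cct4, Cct5 and Cct6a), where of 13557 genes it called 301 higher and 413 lower. Without WT naive replicate 1 it called 1 (Cct6a), where of 13612 genes it called 108 higher and 267 lower. Whether the KO effect was called different between the states thus depended on the tool and on single libraries.

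In tumour-bearing lung the subunits were again lower in KO NK cells. The summed level was 1492, 1421, 1528 and 1509.8 CPM in KO (1488 ± 46.6, SD, n = 4) and 2342, 2093, 2013 and 1959.8 CPM in WT (2102 ± 169, SD, n = 4), a KO mean of 70.8% of WT. Every KO library was below every WT library for 8 of 8 subunits, against 4.24% of genes. After adjustment 2 of 8 fell by edgeR's quasi-likelihood test, where 0.320% of 13129 genes fell.

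Those that passed in lung were Cct3 and Cct7. Cct3 had 167, 149, 149 and 169.9 CPM in KO and 287, 275, 247 and 236 CPM in WT, a change of -0.72 ± 0.11 (SE, adjusted p = 0.00646). Cct7 had 246, 201, 238 and 220.0 CPM in KO and 373, 351, 303 and 316 CPM in WT, a change of -0.57 ± 0.11 (SE, adjusted p = 0.0422). In both genes the nearest KO and WT libraries were well apart. The other 6 had changes of -0.34 (Tcp1 and Cct2) to -0.59 (Cct6a) and adjusted p from 0.0505 for Cct8 to 0.177 for Cct2. At an unadjusted p under 0.05 all 8 were below the threshold, and the median was -0.53, beside 0.002 over all genes.

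The lung count rested on tool and library. DESeq2 called 8 of 8 and limma-voom 7, where of 13129 genes they called 154 and 140 lower. Without KO lung replicate 2 or KO lung replicate 3, 0 passed. Without WT lung replicate 1, the shallow library with the highest summed level of its group, 8 passed, where 197 of 13405 genes fell. Without KO lung replicate 1 or 4, or WT lung replicate 2 or 4, 1 passed. In the same libraries the summed NK markers were 9872 to 11559 CPM in KO and 10975 to 15413 CPM in WT, and the summed T-cell markers 23.5 to 34.7 CPM in KO and 10.2 to 21.5 CPM in WT. Myeloid markers summed to 771 to 1207 CPM in KO and 555 to 896.5 CPM in WT, melanocytic markers to 6.15 to 52.5 CPM in KO and 0.231 to 18.3 CPM in WT. B-cell markers summed to 139 to 183 CPM in KO and 108 to 134 CPM in WT, without overlap. Lung epithelium and endothelium markers summed to 110.5 to 479.7 CPM in KO, the highest in replicate 2, and 104 to 145 CPM in WT. Mitochondrially encoded genes took 8.49 to 10.7% of counts in KO and 3.17 to 6.14% in WT. Their part in the result was not tested.

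The KO effect in lung and the KO effect in naive spleen were set against each other as an interaction over all 24 libraries. The difference (lung minus naive) lay between -0.10 and 0.14 for the 8 subunits, and every 95% interval lay within -0.45 to 0.49. By edgeR's quasi-likelihood test 0 of 8 passed, 0 at an unadjusted p under 0.05, and DESeq2 and limma-voom called 0, where 1.15% of 14275 genes passed.

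**Figure D2:**
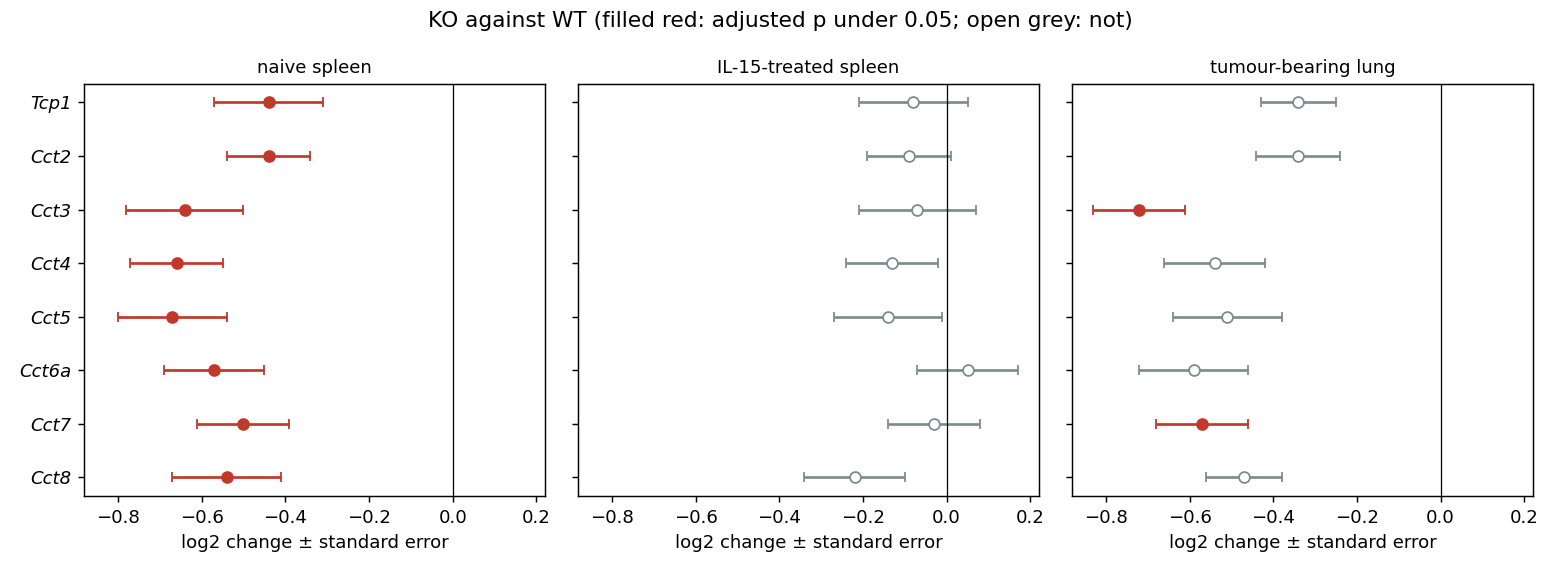
Log2 change of KO over WT for each subunit in the 3 states (naive, IL-15, lung), with bars of 1 standard error either side; filled red points passed at an adjusted p under 0.05. Changes lie between -0.67 and -0.44 in naive spleen and between -0.72 and -0.34 in lung, and between -0.22 and 0.05 after IL-15.

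IL-15 treatment was followed by no called change of CCT transcripts in KO cells and by lower levels in WT cells. In KO spleen it gave log2 changes of -0.09 (Cct7) to 0.26 (Tcp1), with a median of 0.13. By edgeR's quasi-likelihood test 0 of 8 passed, where 41.7% of genes did in either direction; 1 had an unadjusted p under 0.05, DESeq2 called 1 and limma-voom 2, all higher. Cct4 had 240.1, 264, 235 and 282 CPM in IL-15-treated KO cells and 208, 197, 222 and 189 CPM in naive KO cells, a change of 0.25 (adjusted p = 0.0625). Cct2 had 277, 296, 255 and 305 CPM in IL-15-treated KO cells and 254, 245, 247 and 242 CPM in naive KO cells, a change of 0.13. For Cct2 and Cct4, 2 of 8 subunits, every treated KO library was above every naive one, as it was for 23.3% of 14275 genes. For the other 6 the groups overlapped.

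In WT spleen 6 of 8 subunits fell with IL-15, where 26.0% of 13344 genes fell, and the median subunit change was -0.37. Cct3 had 190.1, 208, 153 and 163 CPM in IL-15-treated WT cells and 251, 273, 245 and 228 CPM in naive WT cells, a change of -0.57 ± 0.14 (SE, adjusted p = 0.00194). Cct7 had 251, 258, 211 and 228 CPM in IL-15-treated WT cells and 304, 380.3, 328 and 306 CPM in naive WT cells, a change of -0.56 ± 0.11 (SE, adjusted p = 0.000395). Cct3 and Cct7, 2 of 8, were the subunits whose treated and naive libraries did not overlap. Every treated WT library was below every naive one for 19.6% of 14275 genes. Cct6a changed by -0.43 (adjusted p = 0.00574), Cct5 by -0.40 (adjusted p = 0.0138), Cct8 by -0.33 (adjusted p = 0.0326) and Cct4 by -0.28 (adjusted p = 0.0301). Cct2 stood at -0.22 (adjusted p = 0.067) and Tcp1 at -0.10 (adjusted p = 0.533). DESeq2 called 4 of 8 and limma-voom 7, where of 13344 genes they called 3295 and 4319 lower. EdgeR called 4 with median-ratio scaling, with no filter or with all 24 libraries in the fit. There 3139 of 13344, 3276 of 19450 and 3048 of 14275 genes fell. Without WT IL-15 replicate 3, the library lowest in the sum, 3 of 8 passed, where 3062 of 13590 genes fell. A block on the number in the library name was fitted over libraries whose number occurs in both states. With it 2 of 8 passed, where 2632 of 13445 genes fell. These comparisons share their naive libraries with the comparison of genotypes above, so the values are given side by side. Proliferation markers summed to 1556 to 2107 CPM in IL-15-treated KO cells and 1653 to 2064 CPM in IL-15-treated WT cells, and to 61.6 to 87.5 CPM in naive KO cells and 67.0 to 95.9 CPM in naive WT cells. Proliferation markers were thus higher in both genotypes after IL-15, and their part in the CCT values was not tested.

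Between lung and naive spleen the subunits had small log2 changes. In KO cells the changes were -0.29 (Cct6a, adjusted p = 0.0531), -0.26 (Cct8, adjusted p = 0.0632) and -0.13 to -0.03 for the others. There 0 of 8 passed by edgeR's quasi-likelihood test, where 42.4% of genes did in either direction; 2 had an unadjusted p under 0.05, DESeq2 called 1 and limma-voom 0. In WT cells 1 of 8 fell in lung, where 20.0% of 14275 genes fell: Cct8 had 222, 226, 249 and 219 CPM in lung and 275, 301, 302 and 251 CPM in naive spleen, a change of -0.30 ± 0.11 (SE, adjusted p = 0.0254). The other 7 stood between -0.24 (Cct6a) and 0.07 (Cct3). DESeq2 called 1 and limma-voom called 4, where of 14275 genes they called 2994 and 3564 lower. The call for Cct8 was lost without WT lung replicate 2 or 4 or WT naive replicate 2 or 3 (adjusted p 0.0521 to 0.0713). With the length and GC offset 5 of 8 subunits fell in KO cells, at -0.411 (Cct7) to -0.345 (Cct5), where 5572 of 14275 genes fell. In WT cells the offset put Cct8 at -0.18 (adjusted p = 0.25), while Cct5, Cct2 and Cct7 passed, Cct7 at -0.335 with its sign turned. With the offset 5037 of 14275 genes fell in WT cells. Tissue and tumour differ together between these groups and cannot be told apart.

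**Figure D3:**
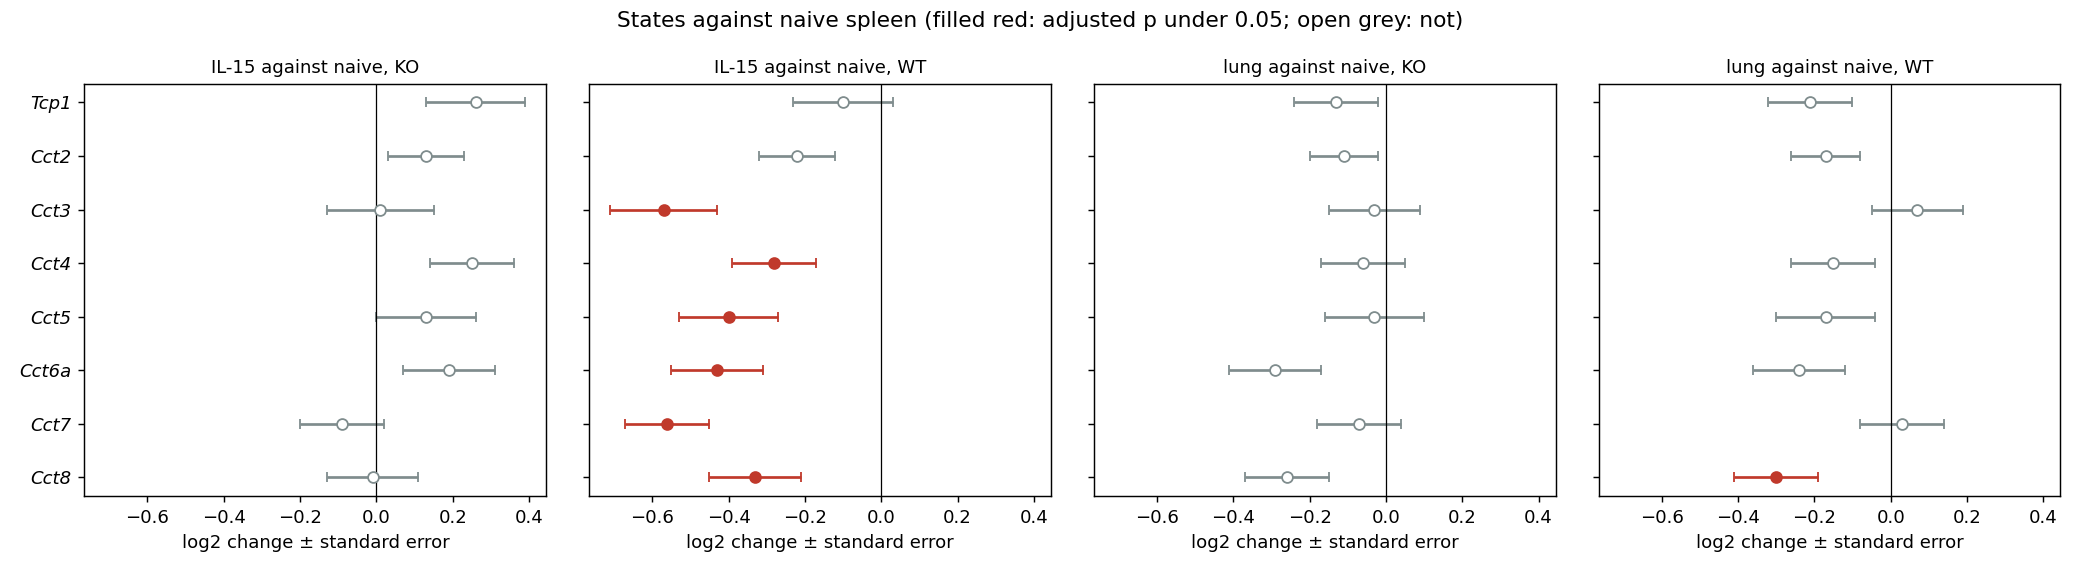
Log2 change of IL-15 over naive spleen and of tumour-bearing lung over naive spleen for each subunit, KO beside WT, with bars of 1 standard error either side; filled red points passed at an adjusted p under 0.05. The IL-15 changes lie between -0.09 and 0.26 in KO cells, and between -0.57 and -0.10 in WT cells.

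By mean summed CPM the groups ran, low to high, KO lung, KO naive, KO IL-15, WT IL-15, WT lung and WT naive, and all 5 neighbouring pairs overlapped. KO lung had the lowest mean for all 8 subunits. WT naive had the highest mean for 6 subunits, and WT lung for Cct3 and Cct7. The lowest library was KO lung replicate 2 (1421 CPM) and the highest WT naive replicate 2 (2515 CPM), 1.77 times as high.

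Divided by the length of its longest transcript, Cct5 was the most abundant subunit and Cct6a the least in 24 of 24 libraries. Cct5 averaged 143 ± 15.8 CPM per kb in KO naive cells and 225 ± 16.3 CPM per kb in WT naive cells (SD, n = 4 each). Cct6a averaged 21.5 ± 1.79 CPM per kb in KO naive cells and 31.3 ± 4.86 CPM per kb in WT naive cells (SD, n = 4 each). The median of the other 7 subunits was 3.45 to 6.54 times the Cct6a level, whereas the highest of those 7 was 1.67 to 2.75 times the lowest. So transcript levels per length were unequal although the particle holds the subunits in equal number. The annotated Cct6a transcripts in GENCODE M21 carry noncoding types, and the length used for it is the least sure. The testis paralogue Cct6b held 106 counts over all 24 libraries, with at most 25 in a library, and Cct8l1 held 2. The listed pseudogenes Tcp1-ps1 and Cct3-ps1 held 0 and 5 counts. Tcp1 had counts that were not whole in 5 libraries, and the other 7 subunits in 0.

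The subunits moved together, but not in lockstep. Across the 24 libraries the share of a subunit in the summed CPM ranged 1.26 to 1.65 times from lowest to highest. Within groups, 14 of 24 libraries had 7 or 8 subunits on the same side of their group means, and 8 libraries had all 8; 6 libraries were split 4 to 4 or 5 to 3. The median deviation of the 8 subunits in a library had an SD of 0.10 on the log2 scale, and the subunits scattered around it by 0.08 (root mean square). Such counts were not made for other genes, so they do not show that the shifts are particular to CCT.

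**Figure D4:**
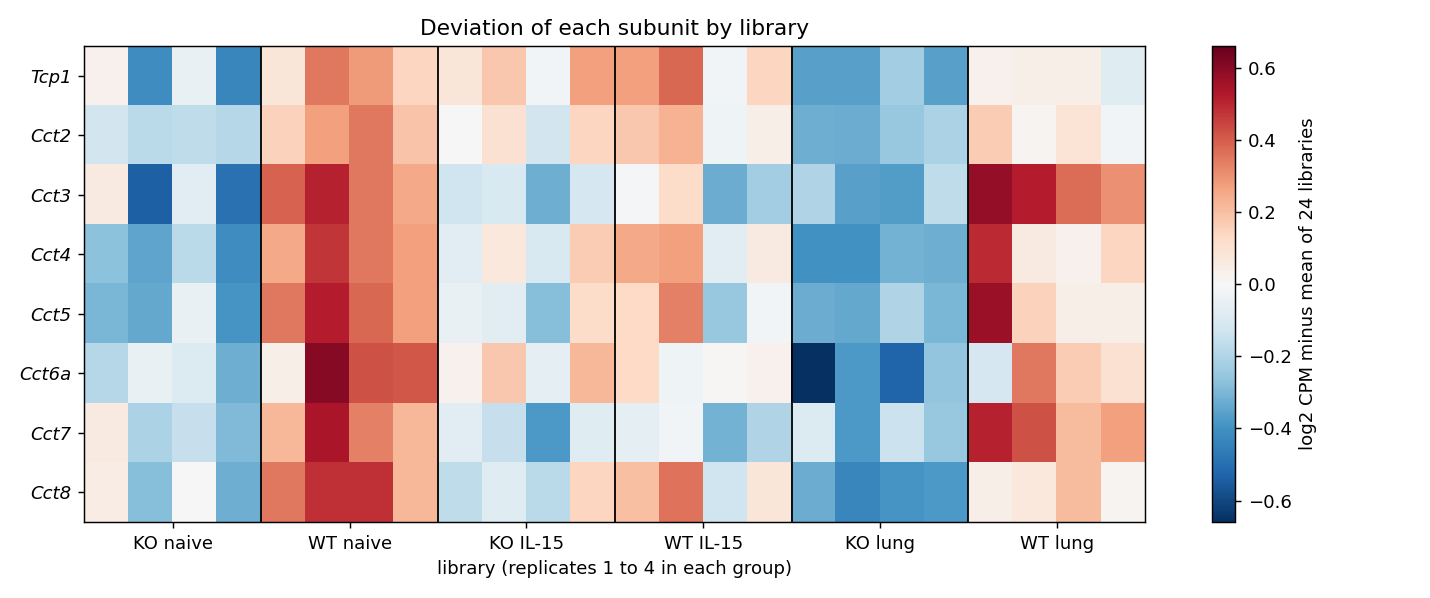
Log2 CPM (prior count 2) of each subunit minus its mean over the 24 libraries, one column per library, KO left of WT in each state; red is above and blue below the mean. KO lung columns are blue in every row, WT naive columns are red in every row, and KO naive replicates 1 and 3 are paler than replicates 2 and 4 for Tcp1, Cct3 and Cct8.

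Shares show which subunits departed from the rest, and are described without a test because they are parts of one sum. In lung, Cct3 took 9.72 to 11.3% of the sum in KO and 12 to 13.1% in WT, while Tcp1 took 13.4 to 14.6% in KO and 11.4 to 13.3% in WT. Cct2 took 14.8 to 15.9% in KO lung and 13.3 to 14.6% in WT lung. None of these ranges overlapped, so within the lung sum Cct3 was lower, and Tcp1 and Cct2 higher, in KO. In naive spleen the share of 1 subunit separated the genotypes: Cct4 took 12 to 13.3% in KO and 13.6 to 14.0% in WT.

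Shares also differed with IL-15. Tcp1 took 15.5 to 16.0% in IL-15-treated KO cells and 13.2 to 15.4% in naive KO cells, and 15.5 to 15.7% in IL-15-treated WT cells and 12.7 to 13.4% in naive WT cells. In WT cells the share of Cct3 was 8.91 to 9.58% after IL-15 and 10.4 to 11.5% without it, and that of Cct7 11.9 to 12.7% after IL-15 and 13.9 to 15.1% without it. Cct4 took 13.5 to 14.6% in IL-15-treated KO cells and 12 to 13.3% in naive KO cells, and Cct2 15 to 16.4% in IL-15-treated WT cells and 13.3 to 14.9% in naive WT cells. Tcp1 thus took more of the sum after IL-15 in each genotype, Cct4 more in KO cells, Cct2 more in WT cells, and Cct3 and Cct7 less in WT cells. Between lung and naive spleen, Cct8 took 10.8 to 11.5% in KO lung and 12 to 12.9% in KO naive cells, and Cct3 12 to 13.1% in WT lung and 10.4 to 11.5% in WT naive cells. No other subunit's shares separated in these comparisons of states.

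**Figure D5:**
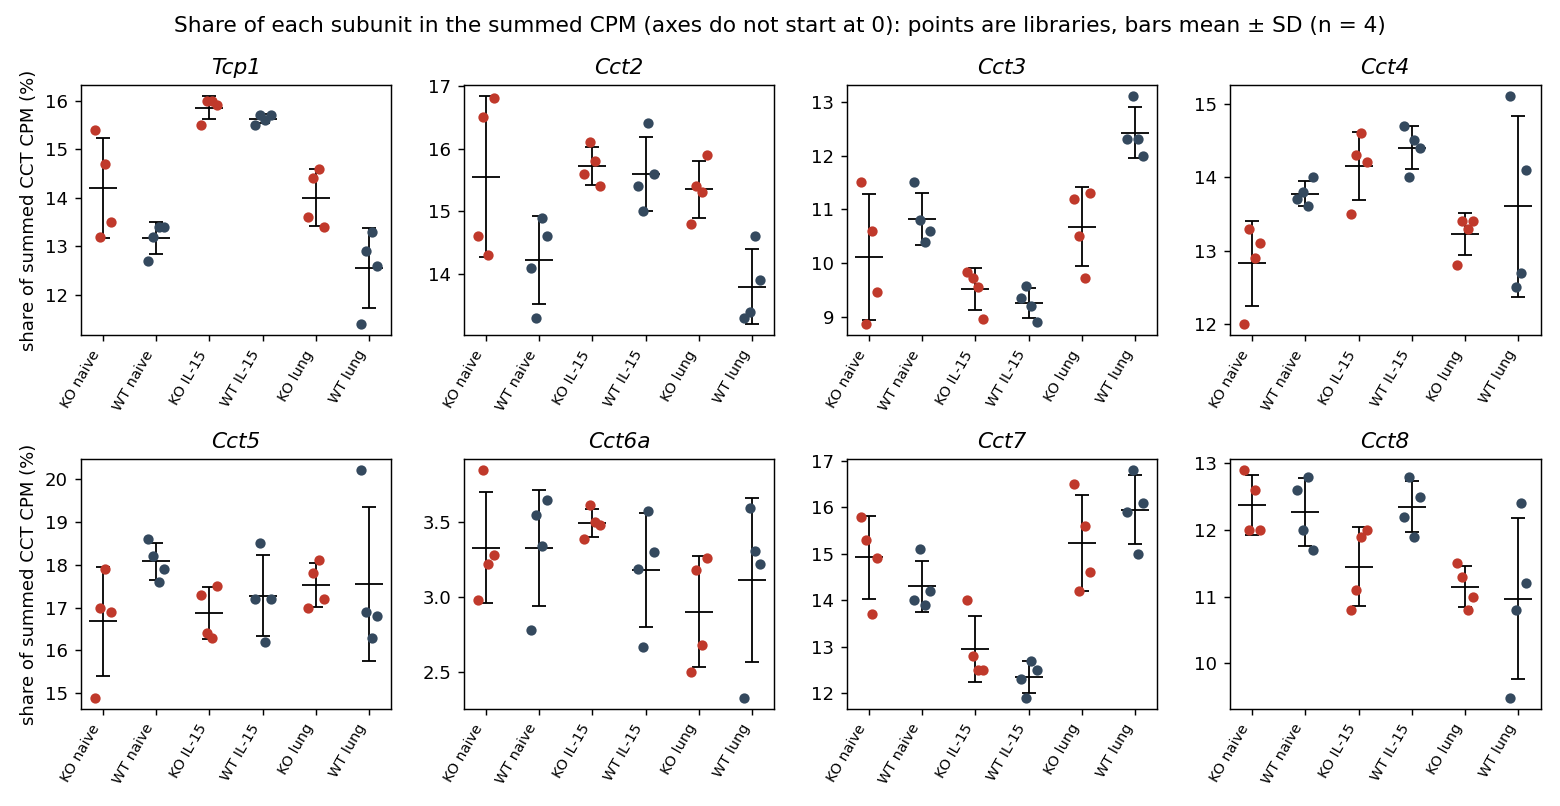
Share of each subunit in the summed CPM of the 8, in percent, per library and group, KO left of WT in each state; axes do not start at 0. Tcp1 shares are highest after IL-15 in both genotypes, and Cct3 shares in KO lung (9.72 to 11.3%) lie below those in WT lung (12 to 13.1%).

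Likeness to the rest of the complex was measured as the root mean square distance between a gene's log2 profile, centred on its mean over the 24 libraries, and the mean profile of the other 7 subunits, among 8672 genes with a mean of at least 10 CPM. Cct4 (0.098), Cct2 (0.104), Cct5 (0.11) and Cct8 (0.112) each ranked 1. Tcp1 (0.15) ranked 5, Cct7 (0.169) 13, Cct6a (0.186) 52 and Cct3 (0.188) 62, where the median distance of all genes was 0.442. That measure holds the differences between groups. With each gene centred on its group means instead, Tcp1 and Cct2 each ranked 2, Cct4 14, Cct7 18, Cct8 20, Cct3 107, Cct5 148 and Cct6a 1755. The distances themselves were smaller for all 8, from 0.059 (Tcp1) to 0.161 (Cct6a), while every rank but that of Tcp1 was further down. The median distance of all genes is not given for this measure. A small distance also favours genes that vary little, and the libraries share their depth and group. By the first measure the genes outside the complex nearest to the mean of all 8 were Fxr1 (0.136), Med6 (0.144), Atp5b (0.149), Mmadhc (0.15), Chtop (0.15), Serbp1 (0.153), Gtpbp4 (0.156), Hnrnpm (0.157), Pdcd6 (0.162) and Anxa7 (0.162). With group means removed Atp5b was nearest to the mean of all 8 (0.056), while the subunit nearest to the other 7 was Tcp1 (0.059). Fxr1, an RNA-binding protein gene, averaged 71.4 ± 5.94 CPM in KO naive and 99.2 ± 8.03 CPM in WT naive cells, and 78.2 ± 2.82 CPM in KO and 84.9 ± 6.04 CPM in WT cells after IL-15 (SD, n = 4 each).

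The partners of CCT were read in naive KO against WT cells. Of the prefoldin subunits, which deliver clients, 2 of 5 tested fell: Vbp1 (-0.66, adjusted p = 0.0174) and Pfdn2 (-0.60, adjusted p = 0.015), with a list median of -0.49. Of the phosducin-like cofactors and Pdcd5, 4 of 4 tested fell: Pdcl (-0.47, adjusted p = 0.00531), Txndc9 (-0.45, adjusted p = 0.0082), Pdcl3 (-0.59, adjusted p = 0.0172) and Pdcd5 (-0.58, adjusted p = 0.0341), beside 9.22% of all genes. Pdcd5 lost its call without KO naive replicate 1, 2 or 3 or WT naive replicate 1, 2 or 3 (adjusted p 0.0517 to 0.103), and by limma-voom (0.0715). Pdcl3 lost it without KO naive replicate 2 (adjusted p = 0.0559), and Vbp1 without WT naive replicate 3 (adjusted p = 0.0567). Among the chaperonin-like relatives 1 of 3 fell, Mkks (-0.83, adjusted p = 0.00206). All of these stood on the same side of 0 as the subunits.

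Clients were measured in the same comparison. Of 13 actin and tubulin genes 6 fell in naive KO cells, among them Tubb4b (-0.68), Tuba1a (-0.67) and Tuba1b (-0.46), and none rose. Over all genes 9.22% fell. Of 6 tubulin-folding cofactors Tbca fell (-0.63, adjusted p = 0.0442) and Tbcd rose (0.35, adjusted p = 0.0334), and both rested on the processing. With the length and GC offset Tbca stood at -0.021 (adjusted p = 0.955) and Tbcd at 0.127 (adjusted p = 0.461). The call for Tbca was also lost without KO naive replicate 1, 2 or 4 or WT naive replicate 1, 2 or 3 (adjusted p 0.0571 to 0.115). That for Tbcd was lost without any 1 of KO naive replicates 1 to 3 or WT naive replicates 1 to 3 (adjusted p 0.0503 to 0.108). The 12 other clients listed were WD40 proteins and proteins of other kinds, such as Stat3 and Vhl. Of these 1 rose, Rptor (0.53, adjusted p = 0.02), where 11.1% of all genes rose, and the list median was 0.10. With the length and GC offset Rptor stood at -0.013, and its call was lost without KO naive replicate 1 (adjusted p = 0.0569) or WT naive replicate 2 (0.0617) or 3 (0.0764).

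Larger changes were measured in chaperones outside CCT. The 16 genes listed, called HSP genes below, were those of the HSP70, HSP90 and HSP110 systems and the heat shock factors Hsf1 and Hsf2. Of these 16 genes 10 fell in naive KO cells, where 9.22% of all genes fell. The median of the 16 was -1.08 beside -0.55 for the CCT subunits. Among the 10 were Hsph1, an HSP110 exchange factor (-2.48), Hspa8, the constitutive HSP70 (-1.56), and Stip1, which links HSP70 to HSP90 (-1.55). The mitochondrial chaperonin pair fell too, Hspd1 (-0.79) and Hspe1 (-1.10). In lung 9 of the 16 fell (median -0.98), where 0.320% of all genes fell. Among the 9 were Ahsa1 (-1.03, adjusted p = 9e-04), Stip1 (-1.44, adjusted p = 0.00235) and Hsp90ab1 (-0.99, adjusted p = 0.00243). Hspd1 (-1.09) and Hspe1 (-1.14) fell as well. In lung edgeR's quasi-likelihood test called 0 of 5 prefoldin genes (3 at an unadjusted p under 0.05) and 0 of 4 cofactors (2 unadjusted), and DESeq2 and limma-voom called 0 of both.

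After IL-15 no gene of these lists differed between KO and WT: edgeR's quasi-likelihood test called 0, 0 at an unadjusted p under 0.05, and DESeq2 and limma-voom called 0 of those refitted. The interaction (IL-15 minus naive) was positive and passed for 9 of 16 HSP genes, where 0.472% of genes did so, among them Hsph1 (2.5), Hspa8 (1.61) and Stip1 (1.58), and for the tubulins Tuba1a (0.74) and Tubb4b (0.70). The call for Tubb4b was lost when any of 6 single libraries was left out (adjusted p up to 0.069), namely KO IL-15 replicate 2 or 4, WT naive replicate 2 or WT IL-15 replicate 1, 3 or 4. IL-15 in WT cells was followed by falls in 4 of 4 cofactors and 3 of 5 prefoldin genes, where 26.0% of genes fell. Of the 13 actins and tubulins, 7 rose and 2 fell with IL-15 in KO cells, and 6 rose and 4 fell in WT cells. Over all genes 20.7% (KO) and 26.4% (WT) rose, and 21% (KO) and 26.0% (WT) fell. On the log2 scale Tuba1b changed by 2.06 in KO cells and by 1.52 in WT cells. Tubb5 changed by 1.83 in KO cells and by 1.35 in WT cells, and Tuba1a by -0.42 in KO cells and by -1.16 in WT cells. In lung against naive spleen 12 of 16 HSP genes rose in KO cells, where 24.3% of genes rose, and 11 of 16 rose and 1 fell in WT cells, where 29.2% of genes rose. Hspa1a, the inducible HSP70, rose by 9.48 in KO cells and by 9.67 in WT cells.

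Some subunits start close to a gene on the opposite strand, and these neighbours were listed after the coordinates were seen. Fam173b starts 5 bases from Cct5 and fell in naive KO cells (-0.56, adjusted p = 0.0242). Psph starts 187 bases from Cct6a and fell (-0.45, adjusted p = 0.019). Fam173b lost its call without KO naive replicate 4 or WT naive replicate 2 or 4 (adjusted p 0.0612 to 0.0726), and Psph without KO naive replicate 4 or WT naive replicate 3 (adjusted p 0.0517 and 0.0569). Mrpl18 (644 bases from Tcp1) stood at -0.24 (adjusted p = 0.363), Pradc1 (465 bases from Cct7) at 0.02 (adjusted p = 0.968) and Tsacc (117 bases from Cct3) at 1.98 (adjusted p = 0.204). The sources used here do not give whether counting used strand, so reads of overlapping partners, Tcp1 with Mrpl18 and Cct8 with Usp16, may be split. Counts that were not whole, as split reads can give, were seen for Tcp1 in 5 libraries and for Cct8 in 0.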

How the data were processed

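The authors deposited a table of expected counts (RSEM) for 38215 genes in 24 libraries, unfiltered and not normalized. The submitters' processing notes name GRCm38, RSEM 1.2.30, STAR 2.5.2a and cutadapt 1.9, and the sources used here give neither annotation nor strand settings. Per the labels, RNA came from a Qiagen RNeasy Plus Micro kit and libraries from a NEBNext Ultra II Directional kit. Of the values, 5.47% were not whole and were rounded. The quasi-likelihood F test of edgeR 4.0.16 in R 4.3.3, after filterByExpr and TMM scaling, was fitted on all genes over the 16 spleen, the 8 lung or all 24 libraries, with Benjamini-Hochberg adjustment and a threshold of 0.05. Standard errors are the change divided by the root of F. The scripts were tested on simulated data. DESeq2 1.42.0 and limma 3.58.1 (voom) were alternatives, as were other scalings and filters, a length and GC offset, replicate blocks and leaving out libraries. Named were all 8 subunits, Fcer1g, up to 3 passing genes per partner list with the smallest p, and the 10 genes nearest in profile; other genes were named after their values were seen. The members and lists were chosen with earlier results of these data known.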

Additional observations from a re-analysis of the deposited data

Results flagged for a closer look

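Of 54 groups of 4 libraries (8 subunits and their sum in 6 groups), 3 held a library far from the other 3 by Dixon's 95% critical value for the gap over the range, and chance alone gives about 1 in 20. Tcp1 in KO lung replicate 3 stood at 222 CPM, above the other 3 at 203 to 204 CPM (gap over range 0.944). Tcp1 in WT lung replicate 4 stood at 248 CPM, below the other 3 at 267 to 269 CPM (0.911). Cct3 in KO IL-15 replicate 3 stood at 154 CPM, below the other 3 at 175 to 179 CPM (0.835).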

How the results depend on the processing

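In naive spleen 8 subunits were lower in KO, 4 with the length and GC offset and 7 to 8 when a replicate was left out. In lung 2 were lower in KO, 8 by DESeq2, 7 by voom, 1 with upper-quartile scaling, 4 with no filter, 1 with the replicate block, 5 with the offset, 8 without the shallow libraries (under 15 M counts), 5 in the fit of all 24 libraries and 0 to 8 when a replicate was left out. Over all genes 42 fell in KO lung, 154 by DESeq2, 140 by voom, 92 with the offset and 197 without the shallow libraries. For IL-15 against naive in WT, 6 were lower (3468 of all genes). With a block on library number 2 were lower (2632 of all genes), and 3 to 7 when a replicate was left out. In KO cells 0 were higher, against 1 by DESeq2, median-ratio scaling, upper-quartile scaling, mitochondrial genes removed or no shallow libraries, 2 by voom or all 24 libraries, and 0 to 1 when a replicate was left out; 1 was lower with the offset. The IL-15 interaction had 0 higher, 2 by DESeq2, 7 by voom and 0 to 4 when a replicate was left out (4 without WT IL-15 replicate 2). Over all genes it had 63 higher and 142 lower, 211 and 471 by DESeq2, and 502 and 818 by voom. For lung against naive, WT had 1 lower, 4 by voom, upper-quartile scaling or no shallow libraries, 3 with the offset and 0 to 3 when a replicate was left out; KO had 0 lower, 1 by DESeq2, median-ratio scaling, the stricter filter, the replicate block or no shallow libraries, 2 with upper-quartile scaling, 5 with the offset and 0 to 2 when a replicate was left out.

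With the length and GC offset these changes turned sign: Rptor to -0.013 (naive KO), -0.528 (IL-15, WT), -0.885 (lung, WT) and -0.744 (lung, KO); Stat3 to -0.539 and Tbcd to -0.003 (IL-15, WT); Fzr1 to -0.391 and Gnb2 to -0.441 (lung, WT), and to -0.545 and -0.246 (lung, KO); Tuba4a to -0.23, Cct7 to -0.335 and Fkbp4 to -0.129 (lung, WT); Pradc1 to -0.123 and Tuba1a to -0.246 (lung, KO). The cause was not tested. The offset moved the calls for IL-15 in WT to 2603 higher and 4887 lower, from 3526 and 3468, and upper-quartile scaling those of the lung interaction to 45 higher and 136 lower, from 24 and 140. Upper-quartile scaling moved the median of all genes in WT lung against naive to -0.039 from 0.078. Of 1536 values for subunits under alternatives, 1393 kept their call or stayed uncalled. Uncalled values that changed sign count among these. With raw totals 16 of 54 group levels moved by 1 SD or more. Same-numbered libraries correlated at -0.19 to 0.25 over genes, with group means removed. With 4 libraries per group these values cannot settle whether the numbers pair the samples. Depth limits Cct6a most, at 464 to 2386 counts per library.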
